A study of Mus musculus with 3 samples.

Results

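The growth hormone receptor and STAT5 pathway was followed in mouse kidney through 10 genes: the receptors *Ghr* and *Epor*, the kinase *Jak2*, the transcription factors *Stat5a* and *Stat5b*, the feedback inhibitors *Cish* and *Socs2*, and the target genes *Igf1*, *Bcl6* and *Pim1*. All probe sets whose platform annotation gave exactly 1 symbol, and that symbol one of these, were taken, which came to 25 of the 45101 probe sets on the array and to 10 of 18193 named genes. RNA came from homogenized whole kidneys of male C57BL/6J mice aged 16 weeks, with 2 cardio-renal syndrome samples and 1 uninephrectomy-alone sample on 1 array each. In the cardio-renal samples the abdominal aorta had been banded, per the labels below the branching of the renal arteries, and a kidney was taken out 2 weeks later. The uninephrectomy-alone sample had lost a kidney too, and the design text names a sham operation as the counterpart of banding. In all groups the remaining kidney was collected 6 weeks after the uninephrectomy. Nothing in the labels ties an array to a single animal. A p-value here reflects just the spread between the 2 cardio-renal arrays, pooled in part over all probe sets. The source of that spread is not labelled.

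Growth hormone binds its receptor dimer and activates the attached kinase JAK2, which phosphorylates STAT5A and STAT5B. The STAT5 dimers enter the nucleus and bind DNA at palindromic sites, where they induce *Igf1* and the inhibitors *Cish* and *Socs2*, which in turn damp the receptor, and in liver they lower *Bcl6*. The erythropoietin receptor signals through the same kinase and the same STAT proteins, and the kidney is both the source of erythropoietin and a target of growth hormone.

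Every value is a MAS5 signal, an intensity on a linear scale that the authors had scaled to the same trimmed mean on each array, and log2 differences were taken after adding an offset of 28.8. Median signals were 105.9 and 102.0 in cardio-renal samples 1 and 2 and 100.1 in the uninephrectomy-alone sample. Over the 22519 probe sets kept by a filter on mean signal, the SD of log2 differences was 0.32 between cardio-renal sample 1 and uninephrectomy alone, 0.26 between sample 2 and uninephrectomy alone, and 0.32 between the cardio-renal samples themselves. In cardio-renal sample 1 all 11 kept genes of a male-biased list were lower than with uninephrectomy alone, at a median log2 difference of -0.88. In sample 2 it was 2 of 11 genes and a median of 0.07. Of all 22519 probe sets kept, 10458 were lower in sample 1 and 11584 in sample 2. The sex-biased lists were chosen with earlier results of these data known, so their counts are descriptions and carry no weight as support. *Slco1a1*, an anion carrier of that list, had 22.5 and 6064 in cardio-renal samples 1 and 2 and 6161 with uninephrectomy alone, and *Cyp7b1* was the other gene of it that was lower in both. Of a female-biased list, 3 of 5 kept genes were higher in both (*Slc7a12*, *Cyp4a14* and *Abcc4*) and 2 lower (*Akr1c18* and *Slc22a7*), with medians of 1.16 in sample 1 and 0.05 in sample 2. Over all genes kept, 30.6% were higher and 29.8% lower in both. *Slc7a12*, an amino acid transporter, had 6011 and 695 in the cardio-renal samples and 213 with uninephrectomy alone, and *Akr1c18*, a steroid dehydrogenase, had 20.8 and 492 in the cardio-renal samples and 1246 with uninephrectomy alone. Results are therefore given for both cardio-renal samples separately. Kidney markers were abundant, with summed signals of 52459 and 61284 in cardio-renal samples 1 and 2 and 58760 with uninephrectomy alone over 5 proximal tubule genes, and of 55573 and 58075 against 57604 over 5 genes of other nephron segments, of which *Slc12a3* was higher and *Aqp2* lower in both.

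Of the 25 probe sets, 18 passed the filter and 7 were too dim. None of the 18 passed limma's test across all probe sets (Benjamini-Hochberg adjusted p = 1 for each), and 0 of 22519 probe sets, or 0%, passed it anywhere, the smallest adjusted p being 0.114. With an unadjusted limma p under 0.05 there were 2 of the 18, *Epor* and *Pim1*, against 627 or 2.78% of all probe sets kept. The fit has 1 residual degree of freedom, and an exact one-sided permutation of 3 arrays cannot give a p below 0.333. No probe set of the 18 was at least 2-fold from uninephrectomy alone in both cardio-renal samples; over all probe sets kept, 0.142% passed that fold on the higher side and 0.0533% on the lower side.

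By sign alone, 4 of the 18 probe sets were higher than uninephrectomy alone in both cardio-renal samples and 5 were lower, which is 22.2% and 27.8% against 31.8% and 29.7% of all probe sets kept. For the other 9 the uninephrectomy-alone signal lay between the cardio-renal ones. Over all 25 probe sets, dim ones included, 6 were higher and 8 lower in both, and without the filter 34.7% and 29.2% of all probe sets were. Counting only distances to the nearer cardio-renal sample that were larger than the distance between the cardio-renal samples left 2 higher and 2 lower of the 18, against 15.2% and 12.7% of all probe sets kept. These 4 were *Pim1* and a dimmer *Igf1* probe set on the higher side and *Epor* and the brightest *Igf1* probe set on the lower side. The median log2 difference of the 18 was 0.02 in cardio-renal sample 1 and -0.11 in sample 2, and that of all probe sets kept was 0.02 and -0.01.

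**Figure D1:**
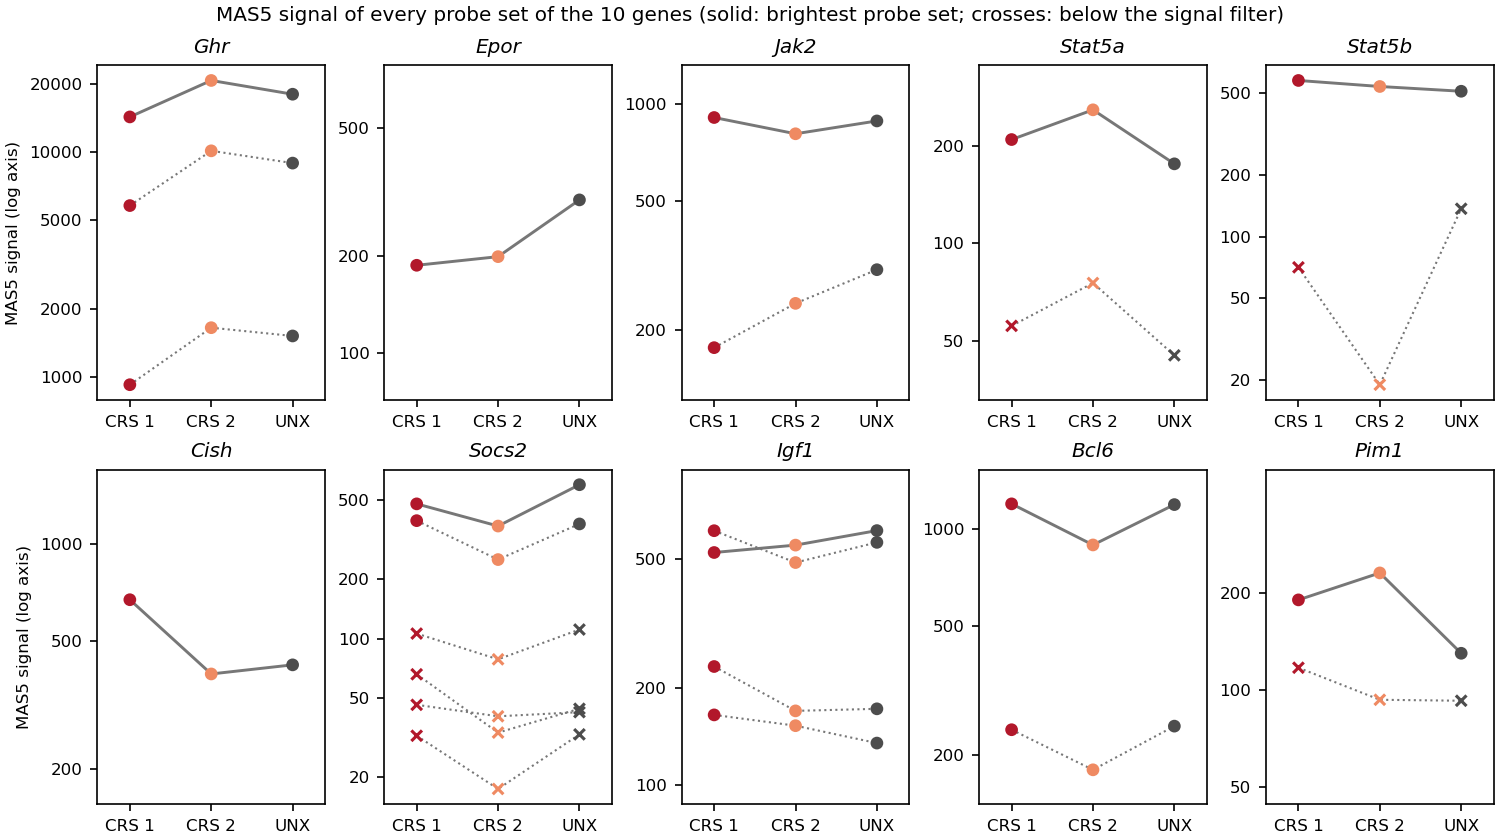
MAS5 signal (log axis) of each probe set of the 10 genes in cardio-renal samples 1 and 2 (CRS 1, CRS 2) and the uninephrectomy-alone sample (UNX), 1 panel a gene. Points are single arrays, lines join the values of 1 probe set, solid lines mark the brightest probe set and crosses the 7 probe sets below the signal filter. The 3 *Ghr* probe sets share 1 order of samples, and all 6 of *Socs2* are lowest in cardio-renal sample 2.

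The growth hormone receptor gene separated the cardio-renal samples from each other more than from uninephrectomy alone. The brightest *Ghr* probe set (1417962_s_at), which shares sequence by its design, had signals of 14264 and 20696 in cardio-renal samples 1 and 2 and of 17984 with uninephrectomy alone. A further probe set (1451501_a_at) had 5771 and 10092 in the cardio-renal samples and 8903 with uninephrectomy alone. The third (1451871_a_at) had 927 and 1659 in the cardio-renal samples and 1525 with uninephrectomy alone. In all 3 probe sets cardio-renal sample 1 was lowest and sample 2 highest, with the uninephrectomy-alone sample between them. Sample 1 lay below uninephrectomy alone by log2 differences of -0.33, -0.62 and -0.70, and sample 2 above it by 0.20, 0.18 and 0.12. Between the cardio-renal samples the ratio of sample 1 to sample 2 was 0.689, 0.572 and 0.559. The mean log2 difference of the brightest probe set was -0.07 ± 0.38 (SD, n = 2), within the spread of the cardio-renal pair. A lower signal can mean fewer cells that carry the transcript or less RNA per cell, which cannot be told apart in whole kidney.

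The male-biased genes were low in the same sample as *Ghr*, as given above. Of the proximal tubule markers *Lrp2*, *Slc34a1*, *Slc5a2*, *Slc22a6* and *Cubn*, 5 of 5 were below uninephrectomy alone in cardio-renal sample 1 (median -0.19). In sample 2 it was 2 of 5 (median 0.04). Their differences in sample 1 were small, from -0.02 for *Lrp2* to -0.36 for *Slc22a6*, where the SD over all probe sets kept was 0.32. Of those 22519 probe sets, 10458 were lower in sample 1 and 11584 in sample 2. The part of these genes and markers in the *Ghr* difference was not tested.

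*Epor*, which encodes the erythropoietin receptor, was lower in both cardio-renal samples, which lay close together. Its single probe set (1423344_at) had signals of 187 and 199 in cardio-renal samples 1 and 2, against 299 with uninephrectomy alone. Both cardio-renal samples stood below the uninephrectomy-alone sample, at 0.627 and 0.667 of its signal, and differed from each other by a ratio of 0.94. The mean log2 difference was -0.56 ± 0.05 (SD, n = 2), with a limma standard error of 0.23, an unadjusted limma p of 0.0406 and an adjusted p of 1. Erythroid markers, whose cells carry this receptor, were summed over the 5 of 7 genes with a probe set and gave 3406 and 3693 in the cardio-renal samples and 3794 with uninephrectomy alone. Most of that sum was *Tfrc*, with 2967 and 3237 in the cardio-renal samples and 3394 with uninephrectomy alone, while the other kept genes, *Alas2* and *Klf1*, were higher in both at 0.14 ± 0.10 and 0.23 ± 0.07 (SD, n = 2 each). *Epb42* and *Hemgn* of that list lay below the lower quartile of signals on all 3 arrays. The summed signal of 5 endothelial markers was 5458 and 5035 in the cardio-renal samples and 5184 with uninephrectomy alone, with *Tek* and *Pecam1* higher and *Kdr* lower in both. The part of these cells in the *Epor* difference was not tested.

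The probe sets of *Jak2*, the kinase attached to both receptors, did not give 1 answer. The brighter one (1421066_at) had signals of 909 and 810 in cardio-renal samples 1 and 2 and of 887 with uninephrectomy alone, so that the uninephrectomy-alone value lay between them. The dimmer one (1421065_at) had 176.0 and 241.4 in the cardio-renal samples against 307.0 with uninephrectomy alone, or -0.51 ± 0.28 on the log2 scale (SD, n = 2). By limma the p was 0.0804 unadjusted, with an adjusted p of 1. Both cardio-renal samples were below uninephrectomy alone there, but their own distance of 0.40 was larger than that of sample 2 from uninephrectomy alone, -0.31.

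*Stat5a* stood above uninephrectomy alone in both cardio-renal samples with both of its probe sets. The brighter (1421469_a_at) had signals of 209.9 and 259.5 in cardio-renal samples 1 and 2, against 176.5 with uninephrectomy alone, ratios of 1.19 and 1.47. The dimmer (1450259_a_at), which did not pass the filter, had 55.6 and 75.4 in the cardio-renal samples and 45.0 with uninephrectomy alone. The mean log2 difference was 0.35 ± 0.19 for the brighter probe set and 0.35 ± 0.22 for the dimmer (SD, n = 2 each), and in both the cardio-renal samples lay further apart than sample 1 did from uninephrectomy alone. The limma p of the brighter was 0.189 before adjustment and 1 after it.

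*Stat5b*, the neighbouring gene and the STAT5 form that carries most of the growth hormone response in mouse liver, had nearly level signals on its brighter probe set (1422103_a_at), with 578 and 540 in cardio-renal samples 1 and 2 and 512 with uninephrectomy alone. The mean log2 difference was 0.12 ± 0.07 (SD, n = 2), and limma's adjusted p was 1. Its dim probe set (1422102_a_at) went the other way, with 70.9 and 19.0 in the cardio-renal samples and 137 with uninephrectomy alone, at log2 differences of -0.73 and -1.79. The value of -1.79 was the only difference of 2-fold or more from uninephrectomy alone among all 25 probe sets, and it came from a probe set below the filter whose cardio-renal signals differed 3.73-fold. Averaging both probe sets turned the sign of *Stat5b*, to -0.57.

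**Figure D2:**
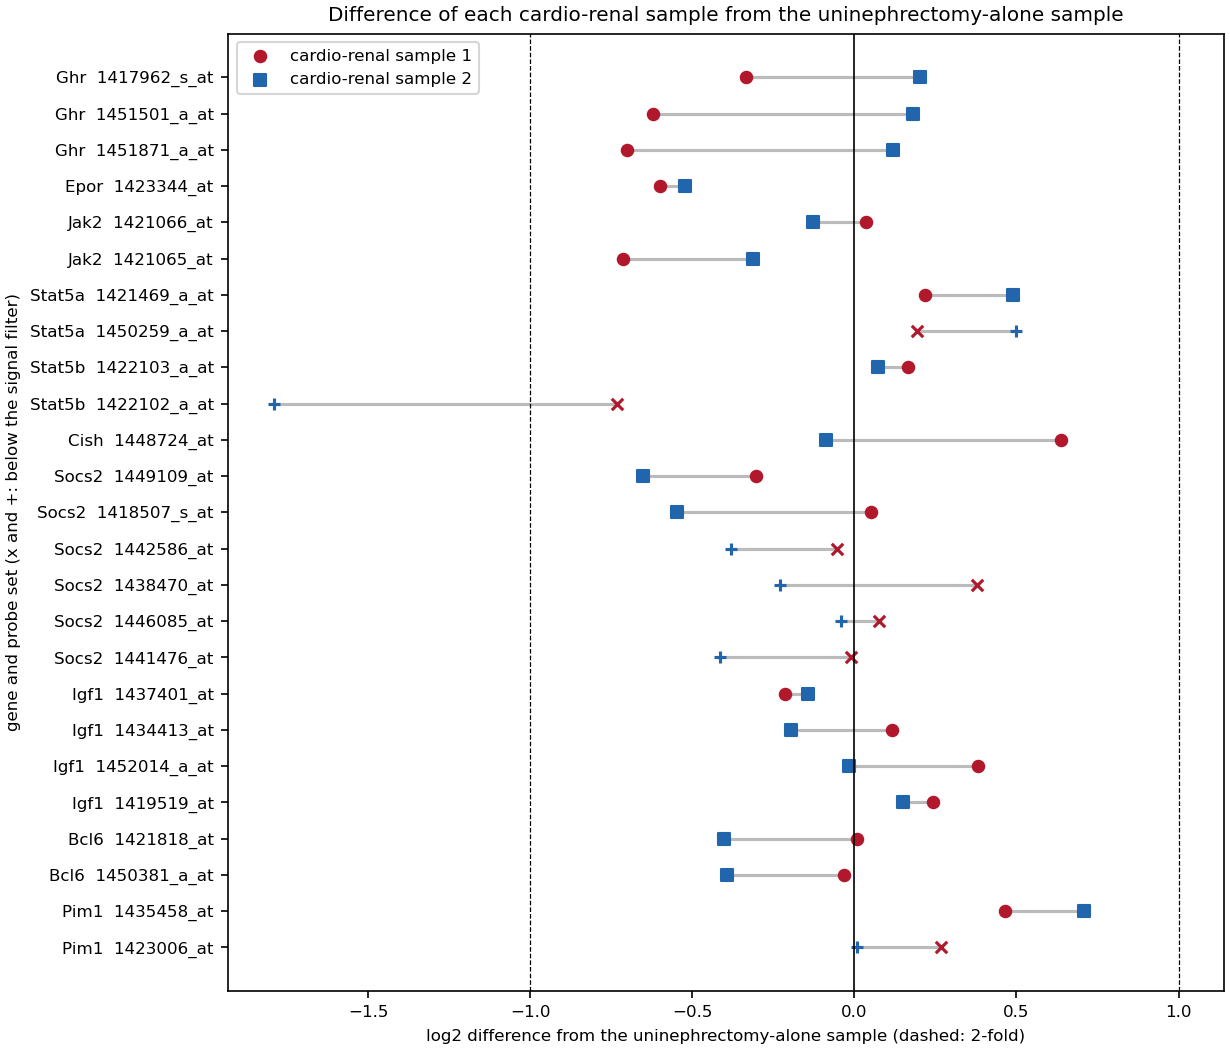
Log2 difference (offset of 28.8 added to each signal) of cardio-renal samples 1 (circles) and 2 (squares) from the uninephrectomy-alone sample, for each of the 25 probe sets. Grey bars join the 2 samples, x and + mark probe sets below the filter, and dashed lines mark 2-fold. The bars of *Epor* and of the brighter *Pim1* probe set lie clear of 0, those of *Ghr* and *Cish* cross it.

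Of the feedback inhibitors, *Cish* was high in 1 cardio-renal sample. CISH binds phosphorylated tyrosines of the receptor and blocks STAT5 from docking. Its probe set (1448724_at) had signals of 671 and 395 in cardio-renal samples 1 and 2 and of 422 with uninephrectomy alone. Sample 1 was thus 1.59 times the uninephrectomy-alone signal and 1.7 times that of sample 2, while sample 2 was at 0.937 of uninephrectomy alone. The mean log2 difference of 0.27 ± 0.51 (SD, n = 2) was within the spread of the cardio-renal samples. Its adjusted p by limma was 1. *Cish* and *Ghr* were therefore apart in sample 1 in opposite directions.

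*Socs2*, whose protein joins a ubiquitin ligase that targets the growth hormone receptor, was lowest in cardio-renal sample 2 on all 6 of its probe sets. The brightest (1449109_at) had signals of 480 and 371 in cardio-renal samples 1 and 2, against 600.1 with uninephrectomy alone. Both cardio-renal samples were below, at a mean log2 difference of -0.48 ± 0.25 (SD, n = 2). The limma p was 0.0626 before adjustment, and the adjusted p was 1. The next (1418507_s_at), which shares sequence by its design, had 395 and 251 in the cardio-renal samples and 380.3 with uninephrectomy alone, so that only sample 2 was below. The other 4 were dim and did not pass the filter, with signals from 17.5 to 111 over all arrays. Of these, 1442586_at and 1441476_at were lower in both cardio-renal samples, while 1438470_at and 1446085_at had uninephrectomy alone between them. Probe sets of 1 gene read the same RNA and are not replicates of each other.

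The promoters of *Cish* and *Bcl6* are shown because these were the genes of the 9 searched in which a STAT motif was found. The motif TTCNNNGAA, the palindromic site of STAT dimers, reads the same on both strands and was searched in the RefSeq promoter windows of GRCm38.p6, from 250 bases before to 50 after each annotated start. Windows were searched for 9 of the 10 genes, not for *Socs2*, 14 windows in all, and 3 of them held the motif. Over all 32851 promoter windows 8.3% held it at least 1 time, 0.457% at least 2 times and 0.0335% at least 3 times. The *Cish* window holds it 2 times, at bases 1 to 9 and 12 to 20 from the start, without overlap. The window of the downstream *Bcl6* start holds it 3 times, its first bases at positions -168, -122 and -88 from the start, and that of the upstream start holds it 1 time, at -118. Capitals mark the motif, and each sequence runs 5′ to 3′ on the strand of its gene.
*Cish*, chr9:107296409-107296708, plus strand: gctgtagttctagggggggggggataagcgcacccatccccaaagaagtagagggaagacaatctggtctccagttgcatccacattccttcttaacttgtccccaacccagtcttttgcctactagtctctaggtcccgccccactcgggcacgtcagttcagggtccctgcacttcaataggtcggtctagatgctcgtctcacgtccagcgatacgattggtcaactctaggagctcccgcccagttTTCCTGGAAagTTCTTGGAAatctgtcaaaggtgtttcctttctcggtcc
*Bcl6* downstream start, chr16:23981234-23981533, minus strand: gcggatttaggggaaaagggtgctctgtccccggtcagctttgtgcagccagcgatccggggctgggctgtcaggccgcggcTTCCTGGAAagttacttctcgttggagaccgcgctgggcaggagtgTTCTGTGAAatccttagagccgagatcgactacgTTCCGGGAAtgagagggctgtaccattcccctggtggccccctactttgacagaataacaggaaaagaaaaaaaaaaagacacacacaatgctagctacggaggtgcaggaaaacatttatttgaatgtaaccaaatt
*Bcl6* upstream start, chr16:23988936-23988996, minus strand, the stretch around the motif: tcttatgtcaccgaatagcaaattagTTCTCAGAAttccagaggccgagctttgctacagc

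**Figure D3:**
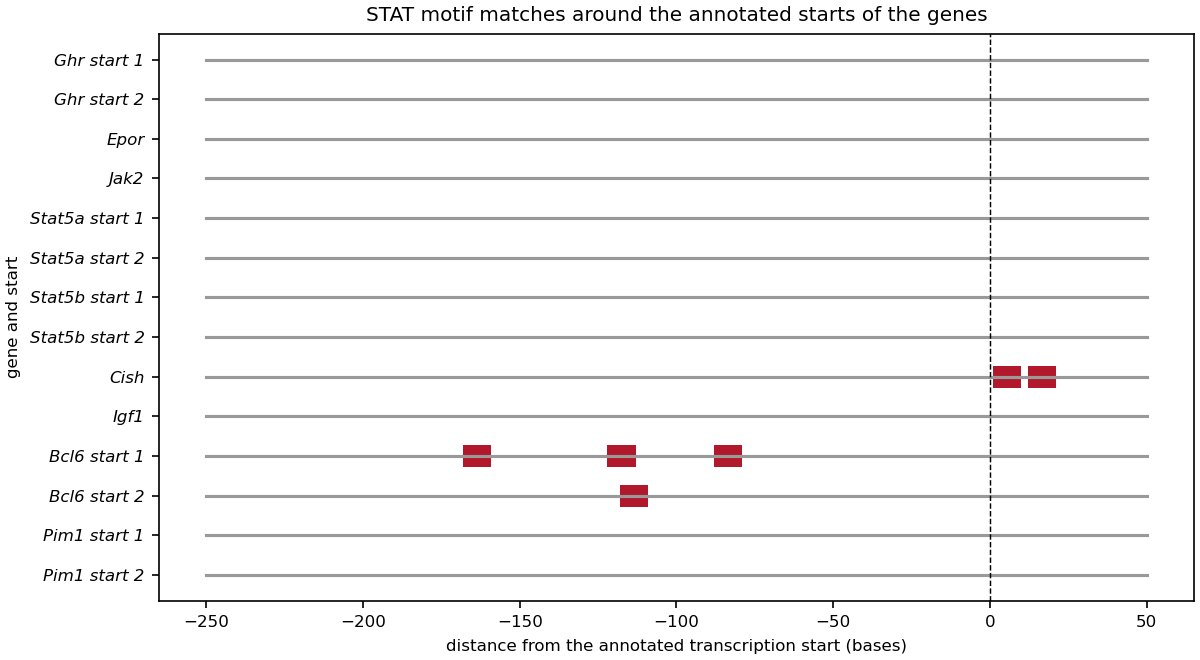
Matches of the STAT motif (red boxes) in the 14 RefSeq promoter windows of the genes, by distance in bases from the annotated start (dashed line); where a gene has 2 starts they are numbered by position along the chromosome, so that for *Bcl6* start 1 is the downstream one. *Cish* has 2 matches just after its start and *Bcl6* has 3 and 1 before its starts, and the other windows have none.

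*Bcl6* encodes a transcriptional repressor that shares binding sites with STAT5 and is a male-biased, growth hormone responsive gene in mouse liver. Its brighter probe set (1421818_at) had signals of 1196.5 and 892.5 in cardio-renal samples 1 and 2 and of 1190.3 with uninephrectomy alone. The dimmer (1450381_a_at) had 239 and 179 in the cardio-renal samples and 245.0 with uninephrectomy alone. On both probe sets sample 1 was close to the uninephrectomy-alone signal, at ratios of 1.01 and 0.975, and sample 2 was at 0.75 and 0.732 of it. The mean log2 differences of -0.20 ± 0.29 and -0.21 ± 0.26 (SD, n = 2 each) did not exceed the spread of the cardio-renal samples. *Cish*, both kept *Socs2* probe sets and *Bcl6* were thus higher in cardio-renal sample 1 than in sample 2, an order that 10 of the 18 probe sets and 55.1% of all probe sets kept had.

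*Igf1*, the growth factor through which much of the growth hormone effect is carried, gave small differences of both signs over its 4 probe sets, all of which passed the filter. The brightest (1437401_at) had signals of 525 and 553 in cardio-renal samples 1 and 2 and of 614 with uninephrectomy alone. It was lower in both, at -0.18 ± 0.05 (SD, n = 2). The dimmest (1419519_at) had 165 and 152.5 in the cardio-renal samples and 135 with uninephrectomy alone, higher in both at 0.20 ± 0.07. Of the others, 1434413_at had 613.0 and 488.4 in the cardio-renal samples and 564.0 with uninephrectomy alone. The last (1452014_a_at) had 232.6 and 169.5 in the cardio-renal samples and 172.0 with uninephrectomy alone, which in both lay between the cardio-renal values. With probe sets of 1 gene on either side, no direction can be given for *Igf1*, and the mean over its 4 probe sets was 0.04.

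*Pim1*, a serine-threonine kinase gene that STAT5 induces and that promotes cell survival, had the largest mean log2 difference above uninephrectomy alone among the 18 probe sets. Its brighter probe set (1435458_at) had signals of 190.0 and 230.3 in cardio-renal samples 1 and 2, against 130 with uninephrectomy alone, ratios of 1.46 and 1.77. Both cardio-renal samples were higher, at 0.59 ± 0.17 (SD, n = 2), with a limma standard error of 0.25, an unadjusted limma p of 0.0473 and an adjusted p of 1. The dimmer probe set (1423006_at), below the filter, had 117 and 93.2 in the cardio-renal samples and 92.5 with uninephrectomy alone, so that sample 2 was level with it at a ratio of 1.01.

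Markers of other cells that carry *Pim1*, *Cish*, *Bcl6* or *Igf1* were measured beside them. None of the 8 T and B lymphocyte markers with a probe set passed the filter, *Cd4* and *Cd79a* lay below the lower quartile on all arrays, and the 8 summed to 378 and 258 in the cardio-renal samples and 390 with uninephrectomy alone. Macrophage markers summed to 3584 and 4460 in the cardio-renal samples and 4515 with uninephrectomy alone, 4 of 5 kept genes (*Cx3cr1*, *Adgre1*, *Mrc1* and *Csf1r*) being lower in both and *Cd68* higher. Over all genes kept, 29.8% were lower in both. Most of the sum was *Csf1r*, with 2845 and 3683 in the cardio-renal samples and 3707 with uninephrectomy alone, so that sample 2 was level. *Itgam*, below the filter, was higher in both, with 28.6 and 45.8 in the cardio-renal samples and 16.7 with uninephrectomy alone. Hepatocyte markers summed to 2183 and 1308 in the cardio-renal samples and 1332 with uninephrectomy alone, but went different ways. *Alb* was higher in both, with 775 and 338 in the cardio-renal samples and 217 with uninephrectomy alone, *Apoa2* was lower in both and *Fga* had opposite signs. Heart muscle markers summed to 1862 and 1335 in the cardio-renal samples and 168 with uninephrectomy alone. *Myh6* had 349 and 188 in the cardio-renal samples and 9.93 with uninephrectomy alone, *Actc1* 545.0 and 400.0 against 72.7, and *Myl2* 337 and 257 against 55.9. These 3 passed the filter only through the cardio-renal samples, so that their number carries no weight, and the other 4 did not pass it. Adipocyte markers summed to 12723 and 10654 in the cardio-renal samples and 7698 with uninephrectomy alone. That rise lay mostly in *Car3*, with 8260 and 6995 in the cardio-renal samples and 3702 with uninephrectomy alone. *Fabp4*, the other bright gene, had 4226 and 3424 against 3829 and so opposite signs, while *Car3*, *Retn* and *Adipoq* were higher in both. *Retn* and *Adipoq*, at 77.9 and 88.6 with uninephrectomy alone, also passed the filter only through the cardio-renal samples, so that this count carries no weight either. Adrenal markers summed to 469 and 537 in the cardio-renal samples and 401 with uninephrectomy alone, but went different ways. Of the kept genes, *Dbh* was higher in both and *Cyp21a1* had opposite signs. Below the filter, *Star* and *Cyp11b1* were higher in both, *Cyp11a1* was lower in both and *Th* had opposite signs. The part of heart muscle, fat or these other cells in the signals of *Pim1* and *Igf1* was not tested.

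The rest of the pathway was described over 81 further genes in 5 lists, 1 probe set a gene. Of these, 74 had a named probe set and 60 passed the filter; 16 were higher and 21 lower in both cardio-renal samples, 0 passed limma's adjusted p, and 0 were at least 2-fold apart in both. That compares with 30.6% higher and 29.8% lower among the 11146 genes kept. The median log2 difference of the 60 was -0.0047 in cardio-renal sample 1 and -0.04 in sample 2, against 0.0084 and -0.0028 over all genes kept.

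Among negative regulators, 13 of 21 kept genes were lower in both cardio-renal samples and 2 higher, where 29.8% and 30.6% of all genes kept were. The differences were small, with medians of -0.07 in sample 1 and -0.08 in sample 2. With the mean of each gene's probe sets the counts were 10 lower and 5 higher. *Adam17*, the sheddase that releases the growth hormone receptor's outer part, had signals of 583 and 587 in the cardio-renal samples and 688 with uninephrectomy alone, at -0.22 ± 0.01 (SD, n = 2). *Pias4* and *Pias1*, inhibitors of STAT proteins, stood at -0.27 ± 0.17 and -0.18 ± 0.05, and the leukocyte phosphatase gene *Ptprc* at -0.22 ± 0.07. *Elob*, a subunit of the SOCS ubiquitin ligase, and *Btrc*, which binds the receptor's tail, were the genes on the higher side, at 0.05 ± 0.01 and 0.07 ± 0.06.

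Of the 15 kept kinases and adaptors near the receptor, 4 were higher in both cardio-renal samples and 4 lower, where 30.6% and 29.8% of all genes kept were. *Irs2*, an insulin receptor substrate, had signals of 187 and 183 in the cardio-renal samples, against 115 with uninephrectomy alone, a mean log2 difference of 0.57 ± 0.02 (SD, n = 2). *Irs1* stood at 0.26 ± 0.06, the JAK2-binding adaptor gene *Sh2b1* at -0.26 ± 0.12 and the kinase gene *Src* at -0.50 ± 0.30. The kinase gene *Tyk2* and the adaptor gene *Grb2* were higher in both by less, at 0.12 ± 0.16 and 0.09 ± 0.03, and *Shc1* and *Sos1* lower, at -0.13 ± 0.06 and -0.04 ± 0.02. Of the 3 kept genes of other STAT proteins, *Stat3* stood at 0.08 ± 0.06 and *Stat2* at -0.42 ± 0.25, while *Stat6* had opposite signs. *Stat2*, with signals of 79.8 and 110 in the cardio-renal samples and 135 with uninephrectomy alone, passed the filter only through the uninephrectomy-alone sample, so that its sign carries no weight. Among 6 kept receptors that use JAK2 or STAT5, *Csf2ra*, a subunit of the granulocyte-macrophage factor receptor, stood at 0.52 ± 0.02 and the leptin receptor gene *Lepr* at -0.28 ± 0.14. *Csf2rb* and *Crlf2* were higher in both, at 0.14 and 0.07. By limma's adjusted p no gene of these lists passed.

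Of 15 kept genes that STAT5 can regulate in other tissues, 6 were higher in both cardio-renal samples and 2 lower, where 30.6% and 29.8% of all genes kept were. Their medians were 0.12 in sample 1 and 0.05 in sample 2. The cell cycle inhibitor gene *Cdkn1a* had signals of 405 and 594 in the cardio-renal samples, against 292 with uninephrectomy alone, a mean log2 difference of 0.69 ± 0.37 (SD, n = 2). *Myc* stood at 0.38 ± 0.29, *Cebpb* at 0.29 ± 0.20 and the cyclin gene *Ccnd1* at 0.24 ± 0.10, while *Ccnd2* and the survival gene *Bcl2* stood at -0.17 ± 0.15 and -0.10 ± 0.06. *Cdkn1a* and *Cebpb* were higher in sample 2 than in sample 1, and *Myc* and *Ccnd1* the other way round.

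**Figure D4:**
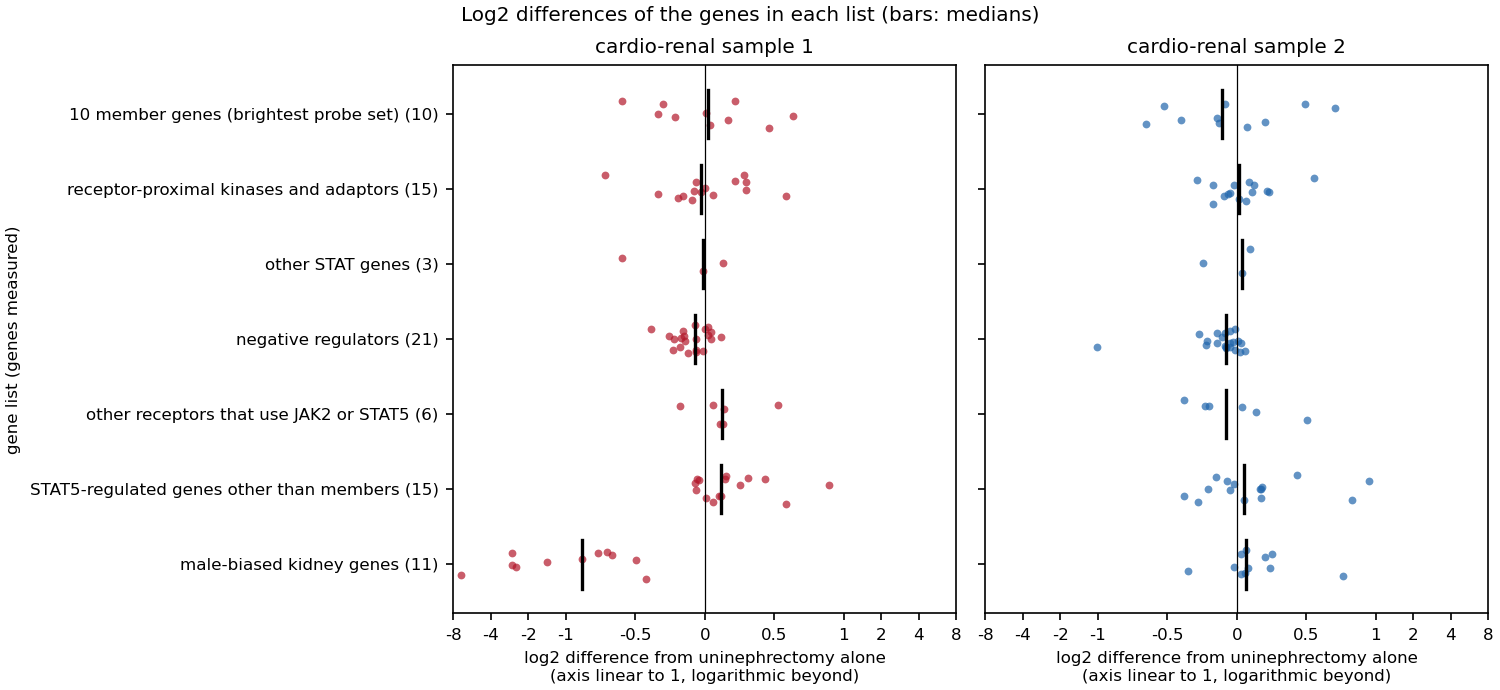
Log2 difference from the uninephrectomy-alone sample of the kept genes of each list in cardio-renal sample 1 (left) and 2 (right); points are genes, black bars medians, numbers in brackets genes measured, and the axis is linear up to 1 and logarithmic beyond. The medians of the 5 pathway lists lie between -0.08 and 0.12, and the male-biased list stands at -0.88 in sample 1 and 0.07 in sample 2.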

How the data were processed

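Kidney RNA was measured on single-colour 3' expression arrays, from 250 ng of total RNA per the labels' protocols. The authors deposited linear intensities made with MAS5, per the submitters' processing notes, which name no version. Each column had the same mean of 500.0 after trimming 2% at either end, and it was left as it was. In MAS5 the mismatch probes are subtracted, so dim signals carry more noise, and detection calls were not used here. With 3 arrays, their number limits the precision.

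Probe sets were named from the platform annotation through Entrez IDs in a RefSeq table of GRCm38.p6: 34945 had 1 symbol, 932 several, 9160 were unnamed here and 64 were controls. Signals became log2(value + 28.81), an offset set at the middle of the arrays' 25th percentiles, which understates differences of dim probe sets. Probe sets were kept at a mean of at least 7.014, the median of all. limma 3.58.1 in R 4.3.3 (lmFit, eBayes with trend, two-sided) was fitted on all 3 arrays, with Benjamini-Hochberg adjustment at 0.05 over 22519 probe sets. The same fit was run on simulated data. The changes there were larger than any mean difference of the kept member probe sets, so that run says nothing of calls at their sizes. The lone uninephrectomy sample is taken to vary as the cardio-renal pair does, whose replicate numbers are only names. All cardio-renal differences share that 1 control. Counts by sign and of at least 2-fold are descriptions.

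The members, lists and tests were chosen with earlier results of these data known. All 10 members were named with every probe set; from each list, up to 4 kept genes a direction were taken by the smaller of their 2 same-signed differences, with any gene at least 2-fold apart in both, and other genes were chosen after their values were seen. For lists, the brightest probe set stood for a gene. Alternatives were other offsets, filters, quantile normalization, eBayes settings, units of the fit, and leaving out a cardio-renal sample. List genes without a named probe set were not analysed here.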

Additional observations from a re-analysis of the deposited data

How the results depend on the processing

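No alternative gave a call: with limma, 0 probe sets passed the adjusted p with offsets of 1 and 100, quantile normalization, no filter, a filter at the upper quartile, 1 probe set a gene, no shared-sequence probe sets, and eBayes without a trend or robust. With 1 cardio-renal sample left out no residual degree of freedom remains and only values were compared. Counts in both samples then become counts in the single sample left, which cannot be smaller, so their rise says nothing of stability. Over all probe sets, at least 2-fold counts (32 higher, 12 lower) became 13 and 6 with an offset of 100, 190 and 60 without the filter, 4 and 6 at the upper quartile, and 15 and 6 with 1 probe set a gene, which tests fewer probe sets; without shared-sequence probe sets the lower count was 6. They were 60 and 47 without cardio-renal sample 1 and 110 and 119 without sample 2. Among member probe sets, the 4 higher and 5 lower in both became 1 and 2 at the upper quartile and 2 and 2 by more than the distance between the cardio-renal samples, a rule added after seeing the data; the lower count was 8 without the filter and 3 with 1 probe set a gene. They were 7 and 11 without cardio-renal sample 1 and 10 and 8 without sample 2. Of the pathway genes, 16 higher in both became 25 without the filter, 7 at the upper quartile and 25 to 30 without 1 cardio-renal sample, and 21 lower became 35 without sample 1. *Stat5b* turned to -0.57 as the mean of its probe sets, since its dim probe set is the lower one. Among single member genes, with both cardio-renal samples in, 33 of the values under alternatives moved by less than the SD and 6 by more: *Epor* with offsets of 1 and 100 (-0.63 and -0.44), and *Jak2* (-0.28), *Socs2* (-0.18), *Igf1* (0.04) and *Pim1* (0.36) as means of their probe sets. For *Igf1* the sign turned too, from -0.18 on its brightest probe set. Leaving out 1 of 2 samples moves a mean by less than its SD by construction, so those values say nothing of stability; without sample 1 the sign turned for *Ghr* (0.20) and *Cish* (-0.09), and without sample 2 for *Jak2* (0.03) and *Bcl6* (0.0074). Of the counts for single lists, 17 moved by over 1.5 times and 67 by less with both samples in, and 15 and 13 with 1 left out; negative regulators had 4 and 17 genes higher and lower without sample 1, and 6 and 15 without sample 2. No paired analysis was possible because the labels give no pairs between the groups. Dim signals limit the 7 probe sets below the filter, and 1 control sample limits every comparison.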
